A study of Mus musculus with 8 samples.

Results

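The 10 genes described here encode the proteins that make and place the double-strand breaks (DSBs) of meiosis, and they were taken by symbol from the 54532 genes of the deposited expression table, where all 10 were found. They are Spo11, Gm960 (which encodes TOPOVIBL), Mei1, Mei4, Rec114, Ccdc36 (which encodes IHO1), Ankrd31, Prdm9, Hormad1 and Hormad2. RNA was sequenced from whole testes of juvenile male mice on a C57BL/6J background, with 1 library per mouse and 4 mice per genotype. Control mice, Sync-Spdya fl/fl, carried a floxed exon 2 of Spdya on both alleles and no Cre, and Sync-Spdya cKO mice carried in addition Ddx4-CreERT2, a tamoxifen-inducible Cre in an exon of the germ cell gene Ddx4, so that somatic cells of the cKO testis keep Spdya. Mice of both genotypes received an inhibitor of retinoic acid (RA) synthesis and then RA, which starts spermatogenesis in step, and both received tamoxifen, at RA7.5 and RA8.5 (days after RA) per the sample labels, while the methods of the study give slightly earlier times for its synchronized mice. Testes were collected at RA11.5, when the study places the spermatocytes in mid-late pachynema, to ask whether silencing of the sex chromosomes is disturbed. The RNA of the genes below was not the study's subject. By staining early pachytene cells, the study found ANKRD31 protein at the region that X and Y share. This held in cKO cells with Y fully synapsed to X as in control cells, and the study reads it as normal break formation there. HORMAD1 protein served in it to label unsynapsed X and Y axes.

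In meiotic prophase I, SPO11 and TOPOVIBL form the topoisomerase-like complex that cuts both DNA strands, mostly before homologous chromosomes have synapsed. The cut needs an assembly of REC114, MEI4, IHO1, MEI1 and ANKRD31 on the chromosome axis, which HORMAD1 helps to recruit, and PRDM9 marks the sites by methylating histones where its zinc fingers bind. HORMAD1 and HORMAD2 leave the axes as these synapse, while the unsynapsed axes of the X and Y chromosomes keep them.

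At RA11.5 all 10 transcripts were detected in all 8 libraries, and none of them passed the test of Sync-Spdya cKO against Sync-Spdya fl/fl after adjustment over all genes. In 8 of the 10 the level was lower in the cKO group, by at most 0.39 on the log2 scale (7 of 10 when libraries were rescaled to TPM, where Mei4 changed sign, and 10 of 10 with array weights, where Spo11 and Hormad1 did). Of all 12141 genes tested, 6309 were higher in cKO (8177 with TPM and 6540 with array weights). Among the 10, those with the smallest p were Ccdc36, Rec114 and Prdm9. Rec114 was the only one in which the 4 cKO libraries lay below the 4 control libraries, as in 2.59% of all genes tested. Spo11 and Hormad1 differed by 0.10 and 0.03 in the other direction.

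Recovered from the deposited values, the libraries held between 13978342 and 19583091 fragments on genes. Control replicate 1 stood apart before any comparison: mitochondrial genes took 0.464% of its fragments against 2.20% to 3.74% in the other 7 libraries, and its counts differed from those of the other controls by a chi-square per gene of 60.0 to 81.7, where the other control pairs differed by 12.1 to 20.5. Fold changes of the 10 genes that it moves by over 1.5 times, and those with the smallest p, are given with and without it. Within the cKO group, replicate 1 differed most. Its pairs with the other cKO libraries gave a chi-square per gene of 15.7 to 21.1, where the remaining cKO pairs gave 3.94 to 7.40. Spdya, the targeted gene, had 21.3 ± 1.76 FPKM in the control and 24.1 ± 5.45 FPKM in the cKO libraries (SD, n = 4 each). The level sums all exons while the deletion takes exon 2, so it gave no check of the labels. Germ cell Ddx4 was at 169 to 259 FPKM and Sertoli cell Sox9 at 21.5 to 32.4 FPKM over the 8 libraries, as a testis holds both cell types.

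Levels are given in FPKM, fragments per kilobase of the gene's exons relative to library size, so that genes can be set side by side per length. The 10 genes spanned 2 orders of level. Hormad1 averaged 124 ± 14.5 FPKM in control testes (SD, n = 4) and stood at percentile 98.6 of the 12141 genes tested by its mean over 8 libraries, while Mei4 averaged 1.13 ± 0.155 FPKM (SD, n = 4) and stood at percentile 0.387, just above the filter of 1 FPKM. Between them the order was Spo11, Hormad2, Ankrd31, Ccdc36, Mei1, Rec114, Gm960 and Prdm9. The ranges over all 8 libraries were apart at 3 places in this order, between Hormad1 and Spo11, between Ankrd31 and Ccdc36 and between Prdm9 and Mei4. Spo11, Hormad2 and Ankrd31 could not be ordered beyond their spread, nor could Ccdc36, Mei1 and Rec114, or Gm960 and Prdm9. Rec114 lay above Gm960 in each of the 8 libraries and without overlap within each genotype, although the lowest cKO value of Rec114 (4.95 FPKM) was just under the highest control value of Gm960 (4.99 FPKM). Per kilobase of counted exons, RNA of the catalytic subunit was thus at a higher level than that of its partner. The ratio of Spo11 to Gm960 was 3.63 to 7.75 in control and 5.34 to 7.93 in cKO libraries. Which transcripts of each gene were present was not tested. Hormad1 exceeded Hormad2 by 5.72 to 7.46 times in control and by 6.76 to 7.90 times in cKO libraries. Both ratios overlapped between genotypes.

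**Figure D1:**
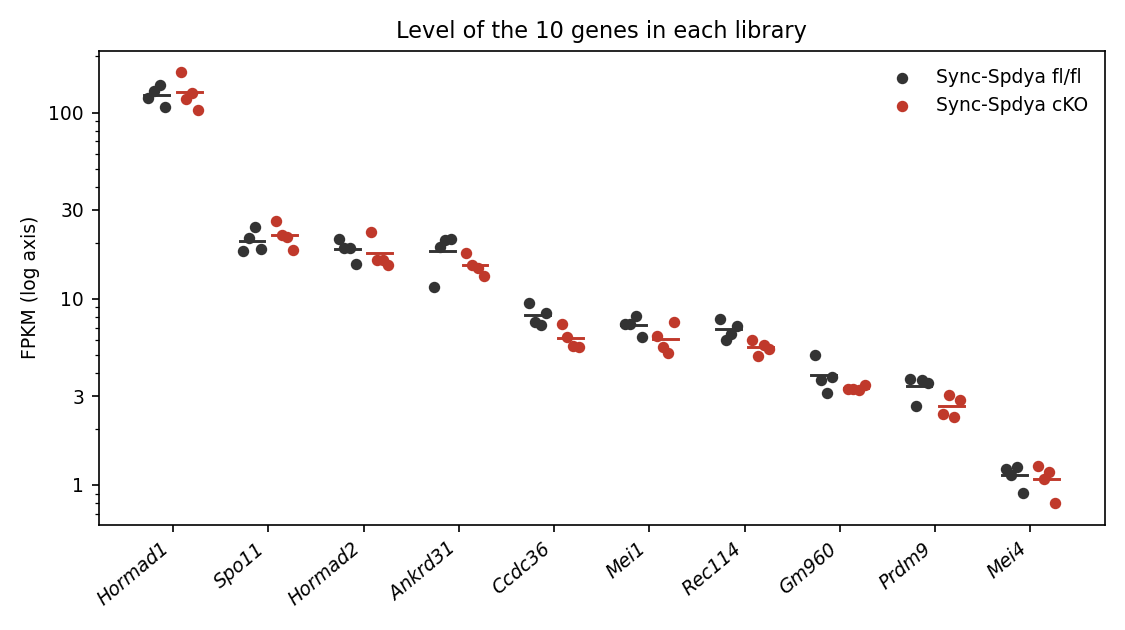
FPKM of the 10 genes (log axis) in each of the 4 Sync-Spdya fl/fl libraries (black) and 4 Sync-Spdya cKO libraries (red), replicates 1 to 4 from left to right, with the group mean as a bar. Genes are ordered by control mean, from Hormad1 at 124 to Mei4 at 1.13 FPKM, and only Rec114 has no overlap between the groups.

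Promoter sequence is shown for the genes with the smallest p and for Hormad1, the most abundant, a choice made with their values known. RefSeq (GRCm38.p6) start sites were given for 9 of the 10 genes, in 11 windows of 250 bases before to 50 after the start, and not for Spo11. Below are the 150 bases before the start, 5′ to 3′ on the gene's strand, with matches to the searched motifs in capitals, for Rec114 (chr9:58741560-58741709, minus strand), Ccdc36 (chr9:108431827-108431976, minus strand), Prdm9 (chr17:15564355-15564504, minus strand) and Hormad1 (chr3:95559527-95559676, plus strand).
Rec114: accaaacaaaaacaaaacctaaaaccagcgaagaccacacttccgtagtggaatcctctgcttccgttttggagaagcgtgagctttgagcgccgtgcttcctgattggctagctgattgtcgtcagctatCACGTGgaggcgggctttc
Ccdc36: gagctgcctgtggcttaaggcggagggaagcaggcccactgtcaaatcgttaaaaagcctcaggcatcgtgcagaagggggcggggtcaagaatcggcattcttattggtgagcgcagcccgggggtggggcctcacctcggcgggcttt
Prdm9: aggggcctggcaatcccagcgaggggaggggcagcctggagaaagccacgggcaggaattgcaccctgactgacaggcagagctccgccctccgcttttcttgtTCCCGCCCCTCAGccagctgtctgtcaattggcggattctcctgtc
Hormad1: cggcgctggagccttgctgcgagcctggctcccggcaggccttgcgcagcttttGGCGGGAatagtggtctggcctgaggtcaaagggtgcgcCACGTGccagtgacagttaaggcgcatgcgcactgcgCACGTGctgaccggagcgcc
Motifs were searched on both strands over the 300-base windows. The E-box CACGTG, the site of many basic helix-loop-helix factors, was in 7.15% of all 32851 promoter windows of the table, and among the 10 genes in Rec114 (first base at -19) and in Hormad1 at -57 and -20. CNCCTCAG, the motif described for STRA8, was in 7.94% of windows, and here in Prdm9 at -41 and 14 and in Hormad2 at -109. GGCGGGA, an E2F motif, was in 11.3% of windows, and here in Hormad1 at -96 and in Prdm9 at -46, where it overlaps the STRA8 motif, and at -231 of a second Prdm9 window. The cyclic AMP response element TGACGTCA was in 1.79% of windows and in 0 of these 9 genes, and the Ccdc36 stretch held none of the 4 motifs. The matches describe letters, not bound factors. For Rec114, Ccdc36 and Mei1 the RefSeq start lies 2405, 3342 and 12480 bases from the start of the gene model over which fragments were counted. Which start these testes used was not tested.

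To compare the genotypes, log2(FPKM + 0.1) was fitted with limma for 12141 genes, those that code for protein and averaged above 1 FPKM in each group, and all 10 genes were among them. Calls needed an adjusted p (Benjamini-Hochberg) under 0.05 together with a log2 fold change beyond 1, the thresholds of the study. Of all genes tested 0.0165% were called, 2 genes, and the same 2 passed the adjusted p alone (0.0165%). The study tested counts instead and called more genes at these thresholds, all on autosomes. With limma on FPKM none of the 10 genes was called by either rule, with limma adjusted p from 0.330 to 0.962. At an unadjusted p below 0.05 there were 3 of 10, all lower in cKO, beside 10.9% of all genes in either direction and 5.00% lower in cKO. The median log2 fold change of the 10 was -0.21, beside 0.01 over all genes tested. The 95% confidence intervals of the 10 fold changes reached from -0.68 at the lowest, for Ccdc36, to 0.40 at the highest, for Spo11, so each excluded a 2-fold difference in either direction. In whole testis, fewer cells that express a gene and less of its RNA per cell cannot be told apart.

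**Figure D2:**
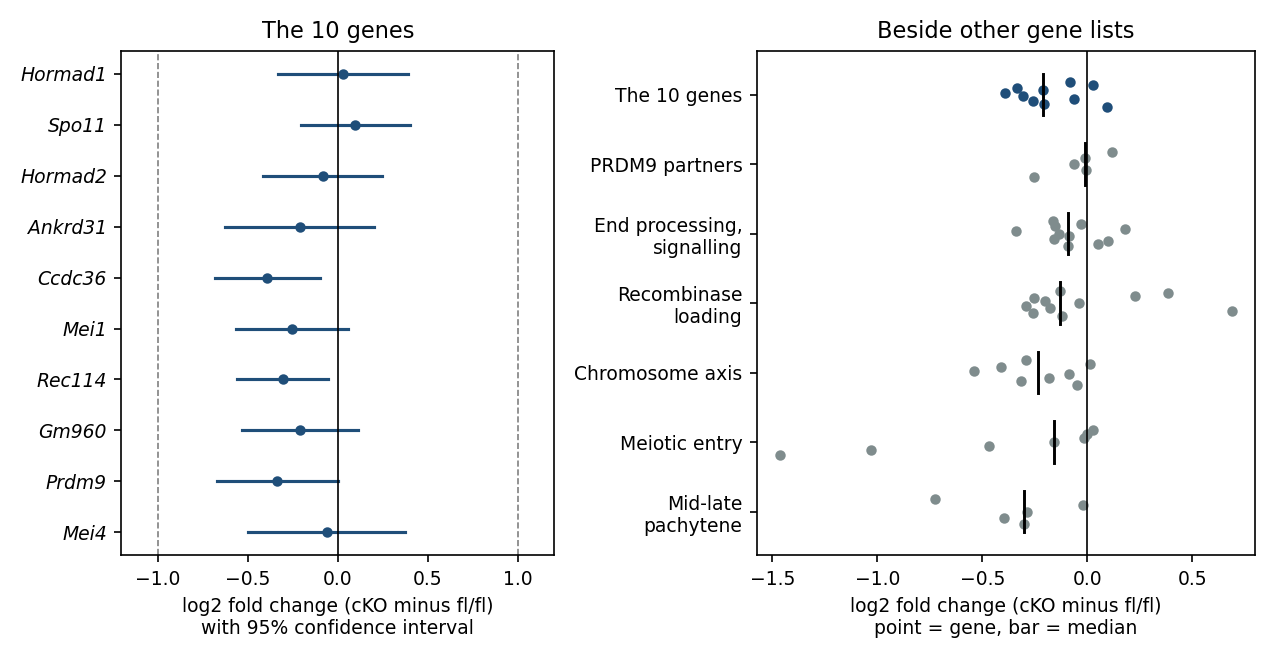
Left, log2 fold change (cKO minus fl/fl, limma on log2(FPKM + 0.1)) of the 10 genes with 95% confidence intervals; dashed lines mark a 2-fold difference, and no interval reaches them. Right, fold changes of the tested genes of 7 lists, 1 point per gene with the median as a bar, which is -0.21 for the 10 genes and between -0.30 and -0.01 for the others; the sign of the smallest differences (Spo11, Mei4, Hormad1) changed under other scalings or weights.

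The catalytic core comprises Spo11 and Gm960. Spo11 (ENSMUSG00000005883, GRCm38 chromosome 2, 172977700 to 172993576, plus strand), the subunit that bears the cutting tyrosine, was at 18.1, 21.2, 24.2 and 18.4 FPKM in control replicates 1 to 4 and at 26.1, 22.0, 21.3 and 18.3 FPKM in cKO replicates 1 to 4. The groups overlapped through most of their range, with cKO replicate 1 the highest library. Its log2 fold change was 0.10 (standard error 0.14, 95% interval -0.21 to 0.40, limma adjusted p = 0.845). Single libraries moved it, to 0.04 without control replicate 1, 0.0096 without cKO replicate 1 and 0.18 without control replicate 3. Gm960 (ENSMUSG00000071691, chromosome 19, 4625734 to 4698668, minus strand), whose product is the B-type subunit, was at 4.99, 3.65, 3.13 and 3.79 FPKM in control and at 3.29, 3.28, 3.22 and 3.44 FPKM in cKO libraries. The cKO values sat close together inside the control range, and control replicate 1 was the highest. The log2 fold change of Gm960 was -0.21 (standard error 0.14, 95% interval -0.53 to 0.11, limma adjusted p = 0.655). Without control replicate 1 it was -0.08, the smallest with any library left out.

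Among the axis-bound partners, Rec114 (ENSMUSG00000074269, chromosome 9, 58652850 to 58743964, minus strand), whose product binds TOPOVIBL and MEI4, was at 7.77, 6.004, 6.46 and 7.12 FPKM in control and at 5.98, 4.95, 5.67 and 5.40 FPKM in cKO libraries. The groups did not overlap, by a margin of 6.004 against 5.98 FPKM, and overlapped when libraries were rescaled to TPM. Without overlap in this direction were 2.59% of all genes tested, and in either direction 6.24%. The means were 6.84 ± 0.771 and 5.50 ± 0.434 FPKM (SD, n = 4 each). The log2 fold change of Rec114 was -0.31 (standard error 0.11, 95% interval -0.56 to -0.05, limma adjusted p = 0.384), and without control replicate 1 it was -0.24. Its unadjusted limma p was 0.0230. A two-sided exact permutation test gave p = 0.0286, as small as 4 libraries per group allow. Every gene without overlap has this exact p, so it only restates the lack of overlap. The unadjusted limma p stayed below 0.05 in 15 of 19 alternative fits, and not with TPM, with voom or without cKO replicate 2 or 4. Each library held only 101 to 149 fragments of this gene, and the spread within groups (0.138 on the log2 scale) was close to the 0.128 that counting alone gives. Of the exon bases counted for Rec114, 26.9% are shared with Nptn on the opposite strand, and whether counting used strand is not given in the sources used here. Nptn itself was at 11.9 ± 1.62 FPKM in control and 12.6 ± 0.786 FPKM in cKO libraries (SD, n = 4 each).

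Ccdc36 (ENSMUSG00000047220, chromosome 9, 108403611 to 108428484, minus strand), whose product IHO1 binds HORMAD1, had the largest difference of the 10 genes. It was at 9.48, 7.46, 7.19 and 8.38 FPKM in control and at 7.33, 6.26, 5.60 and 5.52 FPKM in cKO libraries. Only cKO replicate 1 reached into the control range, above control replicate 3. The means were 8.13 ± 1.03 and 6.18 ± 0.838 FPKM (SD, n = 4 each). Between the genotypes its level differed by -0.39 on the log2 scale (standard error 0.13, 95% interval -0.68 to -0.10, limma adjusted p = 0.330), with an unadjusted limma p of 0.0133 and p = 0.0571 in the exact permutation test. Without control replicate 1 the difference was -0.32. Unlike that of Rec114 or Prdm9, its unadjusted p was below 0.05 in each of 19 alternative fits, while its adjusted p did not go below 0.0806 in any of them. The ratio of Ccdc36 to Hormad1 was 0.0514 to 0.0788 in control and 0.0441 to 0.0539 in cKO libraries.

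Ankrd31 (ENSMUSG00000109561, chromosome 13, 96748272 to 96910039, plus strand), whose product binds REC114 and is needed for breaks in the region that X and Y share, was at 11.6, 18.9, 20.6 and 20.8 FPKM in control and at 17.6, 15.2, 14.7 and 13.3 FPKM in cKO libraries. Control replicate 1 had the lowest value of all 8 libraries, and the other 3 controls lay above the 4 cKO libraries. With all libraries the log2 fold change of Ankrd31 was -0.21 (standard error 0.19, 95% interval -0.63 to 0.20, limma adjusted p = 0.742). Without control replicate 1 it was -0.41 (standard error 0.11, limma adjusted p = 0.121), and the groups did not overlap, as 5.00% of all genes in that fit did not in this direction. Leaving out this library moved the log2 fold change of Ankrd31 further than that of any other of the 10 genes, and the adjusted p missed the threshold both ways. Without control replicate 4 it was -0.13.

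Mei1 (ENSMUSG00000068117, chromosome 15, 82069996 to 82126814, plus strand) and Mei4 (ENSMUSG00000043289, chromosome 9, 81863670 to 82206007, plus strand) encode the remaining partners. Mei1 was at 7.34, 7.34, 8.13 and 6.22 FPKM in control and at 6.29, 5.48, 5.12 and 7.49 FPKM in cKO libraries. Its groups overlapped through cKO replicates 1 and 4. The log2 fold change of Mei1 was -0.26 (standard error 0.14, 95% interval -0.57 to 0.05, limma adjusted p = 0.557). Mei4, which forms a complex with REC114, was at 1.22, 1.14, 1.24 and 0.903 FPKM in control and at 1.26, 1.08, 1.18 and 0.800 FPKM in cKO libraries. In both groups replicate 4 was the lowest, and the groups overlapped almost wholly. With 56 to 101 fragments per library Mei4 was the gene measured with the least depth. Its log2 fold change was -0.06 (standard error 0.19, 95% interval -0.50 to 0.37, limma adjusted p = 0.935), and it was 0.01 with libraries rescaled to TPM and -0.02 without control replicate 1.

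Prdm9 (ENSMUSG00000051977, chromosome 17, 15543079 to 15564354, minus strand), which places the breaks, was at 3.70, 2.66, 3.67 and 3.54 FPKM in control and at 2.41, 3.04, 2.33 and 2.87 FPKM in cKO libraries. The groups overlapped only because control replicate 2 was low, and the other 3 controls lay above the 4 cKO libraries. The means were 3.39 ± 0.492 and 2.66 ± 0.348 FPKM (SD, n = 4 each). The log2 fold change of Prdm9 was -0.34 (standard error 0.15, 95% interval -0.67 to -0.00042, limma adjusted p = 0.459), with an unadjusted limma p of 0.0498 and p = 0.0857 in the exact permutation test. Without control replicate 2 it was -0.45 and the groups did not overlap, as 5.09% of all genes in that fit did not in this direction, and without control replicate 1 it was -0.29. Its unadjusted p was below 0.05 in only 5 of 19 alternative fits.

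The axis proteins HORMAD1 and HORMAD2 mark unsynapsed chromosomes. Hormad1 (ENSMUSG00000028109, chromosome 3, 95559677 to 95587671, plus strand) was at 120, 131, 140 and 106 FPKM in control and at 164, 119, 127 and 103 FPKM in cKO libraries. Both the highest and the lowest library were cKO. Its log2 fold change was 0.03 (standard error 0.16, 95% interval -0.33 to 0.39, limma adjusted p = 0.962), 0.02 without control replicate 1, and its sign changed without cKO replicate 1, to -0.10. Hormad2 (ENSMUSG00000020419, chromosome 11, 4345814 to 4441105, minus strand) was at 21.02, 18.7, 18.8 and 15.4 FPKM in control and at 22.8, 16.2, 16.1 and 15.2 FPKM in cKO libraries. Here too cKO replicate 1 was the highest library, and the other 3 cKO libraries lay in the lower part of the control range or just under it. The log2 fold change of Hormad2 was -0.08 (standard error 0.15, 95% interval -0.41 to 0.24, limma adjusted p = 0.875). It was -0.21 without cKO replicate 1 and -0.02 without either control replicate 1 or cKO replicate 4, and -0.0059 with libraries rescaled to TPM.

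Across libraries the 10 genes did not vary as 1 block. Relative to each gene's mean over the 8 libraries, control replicate 3 was above the mean in 9 genes and cKO replicate 4 below it in 9. Control replicate 1 was the highest library for 4 genes and the lowest for 2, Spo11 and Ankrd31. CKO replicate 1 was the highest for Spo11, Mei4, Hormad1 and Hormad2. The most alike pair was Spo11 and Hormad1, with a root mean square difference of 0.0909 between their centred log2 values over 8 libraries, and Mei4 was next to Hormad1 at 0.116 and Rec114 next to Ccdc36 at 0.124. The least alike were Gm960 and Ankrd31, at 0.420. Of all genes tested other than the 10, the nearest to Spo11 was Tti2 (0.0591), to Gm960 Mgea5 (0.0458), to Mei1 Hint3 (0.0951), to Mei4 Sipa1l2 (0.0680) and to Rec114 Ncapg2 (0.0616). The nearest to Ccdc36 was Idi1 (0.0687), to Ankrd31 Ccdc73 (0.0437), to Prdm9 Snhg11 (0.101), to Hormad1 Hdgfl1 (0.0590) and to Hormad2 Ppp5c (0.0546), where the median gene was 0.271 to 0.367 away. Each is the nearest of all genes tested over 8 points that share libraries and depth. Spread within groups was 1.08 times that of counting alone for Rec114, 1.37 for Mei4 and 1.99 for Gm960, and rose to 8.51 for Ankrd31 and 9.60 for Hormad1.

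**Figure D3:**
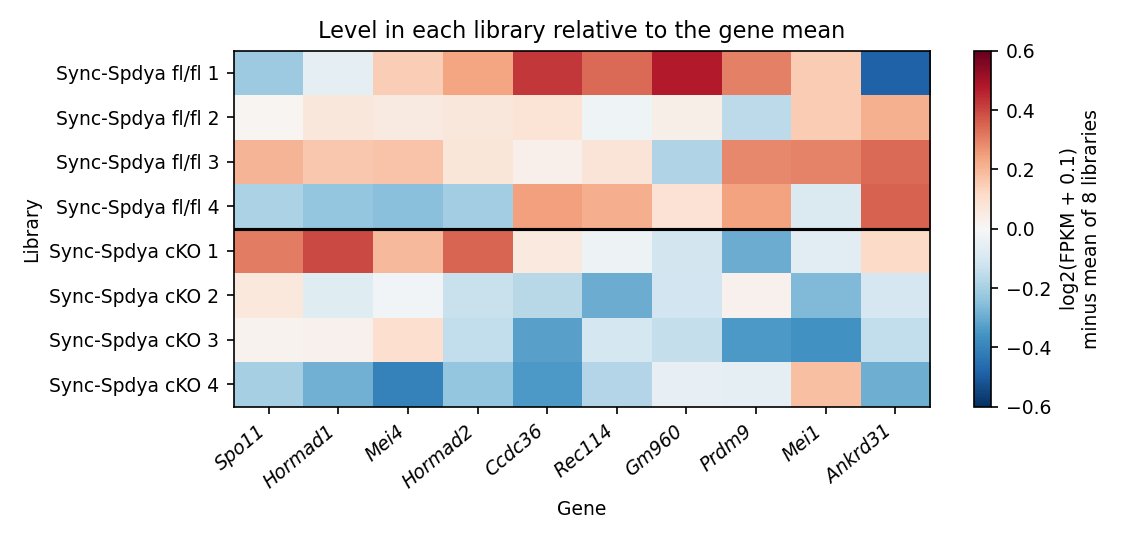
Log2(FPKM + 0.1) of each of the 10 genes (columns) in each library (rows; Sync-Spdya fl/fl above the line, Sync-Spdya cKO below), minus the gene's mean over the 8 libraries; red is higher and blue lower. Spo11, Hormad1, Mei4 and Hormad2 are highest in cKO replicate 1, Ankrd31 is lowest in fl/fl replicate 1, and cKO replicate 4 is below the mean for 9 of the 10 genes.

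The steps that follow a break were compared through lists of their genes, each described by counts beside the 10.9% of all genes that had an unadjusted limma p below 0.05, and in none of the 4 lists did a gene reach an adjusted p below 0.05. Of the partners of PRDM9, 5 of 6 genes were tested, 1 higher and 4 lower, with a median of -0.01, and 0 had an unadjusted p below 0.05. Of these 5, Zcwpw1, a reader of the histone marks that PRDM9 writes, had the smallest p, with a log2 fold change of -0.25 (limma adjusted p = 0.534). Zcwpw2, named here because the protein-coding filter left it out, differed by more, -0.41 on the log2 scale. It was at 2.76 to 4.21 FPKM in control and 2.08 to 3.06 FPKM in cKO libraries. With all biotypes tested, 1 gene of the list was higher and 5 lower, with a median of -0.04, and 0 had an unadjusted p below 0.05. End processing and break signalling had 11 of 11 genes tested, 3 higher and 8 lower, with a median of -0.09. The 1 with an unadjusted p below 0.05 was Atr, the kinase of unsynapsed axes, with means of 25.3 ± 2.74 and 20.02 ± 2.89 FPKM in control and cKO (SD, n = 4 each) and a log2 difference of -0.34 (limma adjusted p = 0.368). Of 11 recombinase-loading genes, 3 were higher and 8 lower, with a median of -0.13, yet both with an unadjusted p below 0.05 were higher.

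Meiob, which binds single-stranded DNA at breaks with SPATA22, was at 18.5, 18.1, 14.9 and 13.7 FPKM in control and at 38.5, 19.6, 28.8 and 21.4 FPKM in cKO libraries. Its groups did not overlap, as those of 442 of all 12141 genes tested did not in this direction. The value of cKO replicate 1 was the highest. The log2 fold change of Meiob was 0.69 (standard error 0.21, limma adjusted p = 0.280), and 0.50 without cKO replicate 1, so its difference was of the opposite sign to the median of the 10 break genes. The other was Swsap1, named here after its value was seen, at 0.38 (limma adjusted p = 0.413). Axis proteins and TRIP13, which removes HORMADs from the axis, had 8 of 8 genes tested, 1 higher and 7 lower, with a median of -0.24. Rad21l, a cohesin subunit of the axis, was the 1 with an unadjusted p below 0.05, at -0.41 (standard error 0.18, limma adjusted p = 0.454). Beside these, the median of -0.21 of the 10 break genes lay near that of the axis list. With libraries rescaled to TPM the medians were -0.13 for the 10 genes, -0.16 for the axis list, -0.05 for recombinase loading and -0.01 for end processing, and that of the PRDM9 partners changed sign, to 0.07.

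Genes of stages and of other cell types were set beside the 10 genes, and their part in the values above was not tested. Of the genes of mid-late pachynema, 5 of 8 were tested and all 5 were lower in cKO (4 with TPM), with a median of -0.30. Their list summed to 832 to 1354 FPKM in control and 645 to 998 FPKM in cKO libraries. Of the control mean sum of 1138 FPKM, Ldhc gave 524, Hspa2 389 and Piwil1 202 FPKM, genes named here for their share. Ldhc averaged 313 FPKM in cKO libraries. Pgk2, named after its value was seen, differed by only -0.02 on the log2 scale, so the sum says little about the other genes of the list. The first of that list, the testis histone Hist1h1t, was at 0.210 to 0.335 FPKM in control and 0.323 to 0.893 FPKM in cKO libraries, under the filter, and in the other direction from the rest. These values rest on 3 to 13 fragments per library, where counting alone gives a spread of 0.620 on the log2 scale. Ccna1, a meiotic cyclin also under the filter, was at 1.30 to 1.95 and 0.834 to 1.26 FPKM without overlap. The smallest p of the list were those of Ldhc, at a log2 fold change of -0.73 (limma adjusted p = 0.287), and Piwil1, at -0.40 (limma adjusted p = 0.442), both named after their values were seen. In the list drawn up for early prophase and meiotic entry, 6 of 7 genes were lower in cKO (4 with TPM). Not all of its genes are confined to those stages. The list had a median of -0.16 and sums of 558 to 822 and 525 to 773 FPKM. Of the control mean sum of 662 FPKM, Tex101 gave 315, Dazl 145 and Dmrtc2 98.7 FPKM, genes named here for their share. Their log2 fold changes were 0.03, -0.01 and -0.003, so neither the sum nor the median of the list says much about Stra8 or Gm4969. Stra8, which starts the meiotic programme, was at 5.92, 4.53, 19.8 and 12.9 FPKM in control and at 2.03, 3.93, 2.93 and 4.70 FPKM in cKO libraries (log2 fold change -1.46, limma adjusted p = 0.280), overlapping through control replicate 2. Gm4969, which encodes its partner MEIOSIN, did not overlap, at 5.63 to 18.5 and 2.91 to 4.45 FPKM (log2 fold change -1.03, limma adjusted p = 0.330). In this direction 2.59% of all genes tested were without overlap. The sum over the 10 break genes was 191 to 233 FPKM in control and 175 to 257 FPKM in cKO libraries, and Hormad1 made up most of it, with 124 of a mean of 212 FPKM in control and 128 of 208 FPKM in cKO.

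Spermatogonial genes were higher in cKO in 6 of 7 tested (median 0.15, sums of 192 to 265 and 255 to 260 FPKM), with Zbtb16 at 8.91 to 16.1 and 9.73 to 16.9 FPKM. Sertoli genes were higher in 6 of 7 (median 0.13, sums of 276 to 391 and 316 to 385 FPKM). Somatic lists of the interstitium and tubule wall were higher in all genes tested. For Leydig cells this was 2 of 5 listed genes (median 0.59, sums of 15.6 to 33.2 and 25.2 to 41.0 FPKM), and their defining gene Cyp17a1 was under 1 FPKM in all libraries, while Cyp11a1, under the filter, was at 0.653 to 0.902 and 1.15 to 1.46 FPKM without overlap. For peritubular cells it was 3 of 4 (median 0.28, sums of 44.3 to 74.1 and 73.2 to 103 FPKM), with Acta2 at 36.0 to 60.8 and 63.1 to 87.1 FPKM without overlap. Cnn1, under the filter and with 31 to 59 fragments per library, was at 0.825 to 0.959 and 0.999 to 1.27 FPKM, also without overlap. For macrophages it was 4 of 5 (median 0.36, sums of 10.3 to 14.6 and 14.0 to 17.3 FPKM), with Adgre1 at 1.30 to 1.53 and 1.35 to 2.13 FPKM and Csf1r at 1.18 to 2.41 and 2.49 to 3.13 FPKM without overlap. Both Acta2 and Csf1r overlapped when libraries were rescaled to TPM or centred on their median, and with voom. Of all 12141 genes tested, 442 were without overlap and higher in cKO. For endothelium it was 4 of 4 (median 0.51, sums of 5.00 to 12.2 and 11.2 to 14.3 FPKM), with Pecam1 at 1.26 to 3.03 and 2.63 to 3.30 FPKM. Of the 6 round spermatid genes 5 had a control mean under 1 FPKM, the list summed to 1.87 to 3.32 and 2.18 to 2.68 FPKM, and Acrv1 was at 0 to 0.151 FPKM. Without control replicate 1 the medians were 0.23 for macrophages, 0.38 for endothelium, 0.41 for peritubular, 0.47 for Leydig, 0.21 for Sertoli and 0.21 for spermatogonial genes. No list had sums apart between the groups, and none of these genes reached an adjusted p below 0.05 in the fit reported. With array weights 1 gene of the mid-late pachytene list and 1 of the peritubular list did.

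**Figure D4:**
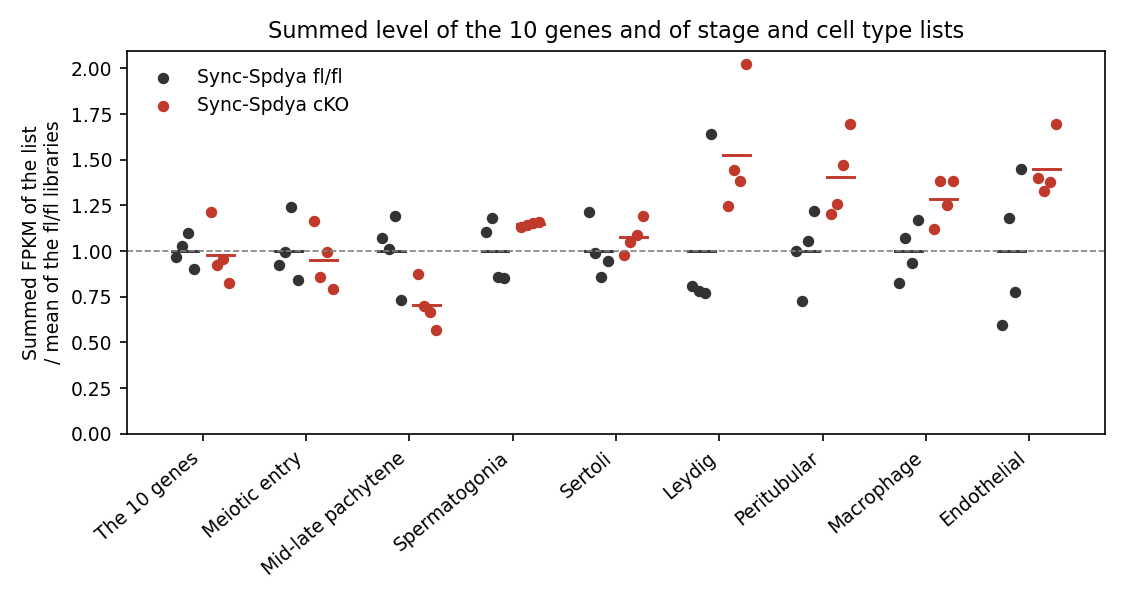
Summed FPKM of the 10 break genes and of the stage and cell type lists in each library, divided by the mean of the Sync-Spdya fl/fl libraries; points are libraries (fl/fl black, cKO red), bars are group means, and the round spermatid list, at most 3.32 FPKM in sum, is left out. The break genes, of which Hormad1 makes up most of the sum, scatter about 1 in both groups. Mid-late pachytene sums, mostly Ldhc, Hspa2 and Piwil1, are mostly lower in cKO. Peritubular, macrophage and endothelial sums are mostly higher in cKO, and the groups overlap in each list. The list labelled Meiotic entry also holds genes of early prophase and genes not confined to these stages. Tex101, Dazl and Dmrtc2 make up most of its sum.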

How the data were processed

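RNA was sequenced from 8 synchronized testes, 4 per genotype. The authors deposited FPKM values for 54532 genes, in 1 table and in a file per library whose rows were equal to it, with a gene length per gene. Per the submitters' processing notes the build was GRCm38 (mm10), and coordinates were the same as in GENCODE vM21 for 98.3% of the 99.8% of genes found there. The aligner, the counting tool and the use of strand are not given in the sources used here. FPKM multiplied by length gave whole multiples of 1 fragment for 100% of values (tolerance 0.02), from which fragment totals and counting error were taken. The study tested counts; with FPKM deposited, limma 3.58.1 in R 4.3.3 (lmFit, eBayes with trend) was fitted to log2(FPKM + 0.1), a scale that understates changes of low genes, over protein-coding genes with a mean above 1 FPKM in both groups. Benjamini-Hochberg adjustment ran over all 12141 genes. Single genes were also tested by exact permutation over the 70 assignments, two-sided. Replicates are separate mice. The procedure was tested on simulated data.

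The 10 genes and all lists were chosen with earlier results of these data known. Named besides the 10 genes were the gene of each pathway list with the smallest p, the first marker of each stage or cell type list and markers without overlap, Spdya, Ddx4, and the nearest gene of each by root mean square difference; other names are marked. The groups share replicate numbers, which were not taken to pair the mice. Alternatives were other pseudocounts, filters and scalings, array weights, a replicate block, voom on recovered fragments with TMM scaling, eBayes with no trend, and leaving out each library. Figures were drawn with matplotlib 3.10.9. Sequences are from RefSeq. No protein sequences were used here.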

Additional observations from a re-analysis of the deposited data

Results flagged for a closer look

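Of 20 groups of 4 libraries tested, one for each of the 10 genes and genotypes, 2 held a library far from the other 3 by the gap to the nearest library relative to the whole range (Dixon, 95%), where chance gives about 1. Prdm9 was at 2.66 FPKM in control replicate 2, against 3.54 to 3.70 FPKM in the other controls, a gap of 0.845 of the range. Hormad2 was at 22.8 FPKM in cKO replicate 1, against 15.2 to 16.2 FPKM in the other cKO libraries, a gap of 0.858 of the range. The low Prdm9 value lay inside the range of the cKO group, and the high Hormad2 value lay above every control library.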

How the results depend on the processing

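All alternatives were planned, and none gave any of the 10 genes an adjusted p below 0.05; the lowest was 0.0794, for Ankrd31 with array weights. The count of the 10 genes with an unadjusted p below 0.05, 3 as reported, was 1 with libraries rescaled to TPM (Ccdc36), 1 with voom (Ccdc36), 2 with the replicate block and 4 with array weights, and 2 to 3 with each library left out. The count without overlap, 1 as reported, was 0 with TPM and 1 to 3 with each library left out: 3 without control replicate 3, and 2 without control replicate 1, control replicate 2 or cKO replicate 1. With 3 libraries in a group overlap is rarer: of all genes 7.94%, 13.3%, 11.2% and 15.4% were without it in these 4 fits, against 6.24%. Of the 10 genes and the 4 pathway lists together, 7 genes had an unadjusted p below 0.05, against 3 with TPM, 13 with array weights and 3 to 9 with each library left out, 3 without cKO replicate 2 or 3. Over all genes this share, 10.9% as reported, was 10.4%, 20.9% and 5.65% to 15.6% in these fits, with 7.58% and 6.57% in the last 2. Of 190 alternative fold changes of the 10 genes 184 kept their sign and 6 did not: Spo11 -0.013 and Hormad1 -0.074 with array weights, Mei4 0.0099 with TPM and 0.062 without cKO replicate 4 (range -0.16 to 0.062 with each library left out), and Hormad1 -0.043 without control replicate 4 and -0.097 without cKO replicate 1 (range -0.097 to 0.13). Their causes were not tested. Rescaling to TPM moved the median of all genes to 0.09, and of the genes at an unadjusted p below 0.05 it left 907 higher and 360 lower, against 715 and 607 as reported. With array weights, where control replicate 1 weighed 0.161 and cKO replicate 3 4.45, 454 genes passed the adjusted p and 57 were called. The deviations of same-numbered libraries from their group means correlated at 0.288, 0.131, 0.0757 and 0.406 for replicates 1 to 4, the third under 0.1, and 5 of 8 libraries correlated best with their own number. With the replicate block 1777 genes had an unadjusted p below 0.05, against 1322, and 0 passed the adjusted p, against 2; the call of none of the 10 genes changed. Depth limits Mei4 and Rec114 most, with 56 to 149 fragments per library.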
